A study of Homo sapiens with 44 samples.

Results

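The ISG15 conjugation pathway was followed in Ccd18-Co cells, a fibroblast line from human colon, through 6 genes: ISG15 and the enzymes that attach it to other proteins or remove it. The genes were taken by name from the table of counts, which held 40663 gene symbols. All 6 were present, and all 6 were among the 9513 genes with enough counts to be tested. The 44 bulk RNA-seq libraries fell into 11 groups of 4: unstimulated cells, and cells stimulated for 24 h with IFNα, IFNγ, IL-1β, IL-6, IL-13, IL-17A, IL-22, OSM, TNF or TGF-β1. Each cytokine was given at 10 ng/ml, apart from IL-1β, which the labels give at 0.1 ng/ml and for which the sources also hold a lower dose. Cells had been kept without serum for 72 h beforehand. All groups came from the same line, so they stand for a single line in culture, and neither the labels nor the methods state that replicates were separate cultures. The p-values below therefore measure only the spread between these libraries, which may be technical.

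ISG15 is a small protein related to ubiquitin that is made in response to interferon and is joined to lysines of other proteins by a chain of enzymes, a process called ISGylation. UBA7 is the activating enzyme (E1), UBE2L6 the conjugating enzyme (E2), and HERC5 the main human ligase (E3). HERC6 is the neighbouring and closely related gene, whose counterpart is the main ISG15 ligase in mice. USP18 is the protease that takes ISG15 off again, and it also binds the type I interferon receptor and dampens its signal. Type I interferons such as IFNα act mainly on genes with a DNA element called ISRE, whereas IFNγ acts mainly on genes with an element called GAS.

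By the GENCODE 44 annotation of GRCh38, ISG15 (ENSG00000187608.10) lies on chromosome 1 from 1001138 to 1014540 on the + strand. USP18 (ENSG00000184979.11) lies on chromosome 22 from 18150118 to 18177397 (+), UBA7 (ENSG00000182179.13) on chromosome 3 from 49805209 to 49813953 (−) and UBE2L6 (ENSG00000156587.16) on chromosome 11 from 57551656 to 57568284 (−). HERC6 (ENSG00000138642.16, chromosome 4 from 88378739 to 88443097) and HERC5 (ENSG00000138646.9, 88457119 to 88506163) sit side by side on the + strand, with 14021 bases between them. An unnamed gene on the opposite strand, ENSG00000231702, overlaps exons of ISG15, and MIR5193 overlaps exons of UBA7. The counting was run with default settings, which use no strand. Reads from bases that ISG15 shares with its overlapping gene therefore cannot be assigned by strand. Whether that gene was among the transcripts counted is not given. ISG15 counts were fractional in every library that held any (15.2 in IFNα replicate 1), and the reason was not tested. USP18 has a near-identical copy, USP41P, which held at most 2.44 counts in any library and 0 in the IFNα libraries.

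The 250 bases before the RefSeq start site (GRCh38.p14) are shown for ISG15 and for both HERC genes, because these 3 genes moved together with IFNα and their windows differ in the interferon-type element. They are printed 5′ to 3′ on the strand of the gene, and capitals mark matches to an ISRE-like motif, GAAA and GAAA with any 2 bases between them, on either strand.
ISG15 promoter, chr1:1013247-1013496, + strand: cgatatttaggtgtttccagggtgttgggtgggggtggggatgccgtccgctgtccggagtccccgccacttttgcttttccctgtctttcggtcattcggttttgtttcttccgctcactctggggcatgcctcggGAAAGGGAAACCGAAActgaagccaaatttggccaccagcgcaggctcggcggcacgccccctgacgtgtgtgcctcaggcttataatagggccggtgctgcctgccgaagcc
HERC5 promoter, chr4:88456869-88457118, + strand: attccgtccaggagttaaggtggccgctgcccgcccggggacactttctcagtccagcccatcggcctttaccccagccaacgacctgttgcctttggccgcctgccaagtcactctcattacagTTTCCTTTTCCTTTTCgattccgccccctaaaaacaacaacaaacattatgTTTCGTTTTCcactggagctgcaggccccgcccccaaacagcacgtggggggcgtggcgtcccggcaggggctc
HERC6 promoter, chr4:88378602-88378851, + strand: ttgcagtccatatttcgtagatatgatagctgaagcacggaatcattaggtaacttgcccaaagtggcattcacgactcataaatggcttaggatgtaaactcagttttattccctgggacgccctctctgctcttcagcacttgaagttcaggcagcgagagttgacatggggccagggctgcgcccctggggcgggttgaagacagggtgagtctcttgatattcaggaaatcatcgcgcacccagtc

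The ISG15 window held 2 overlapping ISRE-like matches, at 113 to 104 and 107 to 98 bases before the start site, on the strand of the gene. The HERC5 window held 3 on the opposite strand, 2 of them overlapping at 125 to 116 and 119 to 110 bases and the other at 74 to 65 bases. HERC6, and both start sites listed for UBE2L6 (chr11:57567936-57568185 and chr11:57567673-57567922), had no match in these windows. By the GENCODE spans above, the ISG15 and UBE2L6 windows lie inside the gene, the HERC6 window partly inside and the HERC5 window before it. Bases before other starts were not searched. Of 35116 promoter windows of 250 bases before to 50 after a start, 3.57% held the ISRE-like motif. A GAS-like motif, TTCNNNGAA on either strand, was in 7.66% of the windows and in none of those of ISG15, UBE2L6, HERC5 or HERC6. USP18 and UBA7 were without a window in the table used. These matches describe letters only and were not tested as binding sites.

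**Figure D1:**
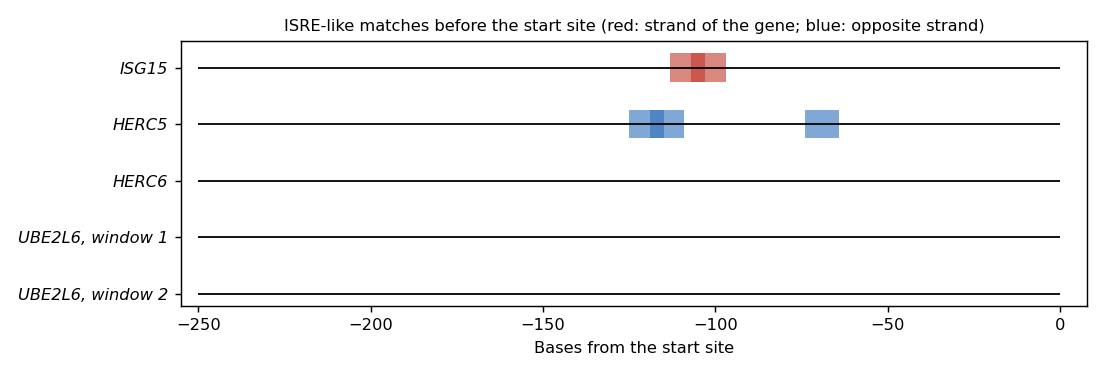
Positions of ISRE-like matches in the 250 bases before the start site (x axis, bases from the start) of ISG15, HERC5, HERC6 and the 2 start sites of UBE2L6; boxes are single matches, darker where they overlap. ISG15 carries 2 matches and HERC5 3, all within 125 bases of the start, and the other windows carry none.

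Totals per library ran from 742173 to 2213424 estimated counts, so that 1 count was worth 0.464 to 1.28 CPM (counts scaled to the normalised library size). Genes that mark fibroblasts had a summed level of 17243 to 52357 CPM in the 44 libraries, over 9 markers led by DCN and COL1A1. PDGFRB, also on that list, was scarce, with a mean of 7.79 CPM and at most 27 counts. Of 5 epithelial markers, CDX2 was at 0 in all libraries, and EPCAM, CDH1 and KRT20 reached at most 3 counts, while VIL1 averaged 10.6 CPM. Endothelial markers summed to at most 2.65 CPM (KDR at 0). Of 5 leukocyte markers, CD3E was at 0, and PTPRC, LYZ and CD14 stayed at or below 5 counts. CD68, a lysosomal protein used as a macrophage marker, moved with the interferon groups: the leukocyte list summed to 38.1 to 73.8 CPM with IFNα, 8.48 to 20.7 with IFNγ and 0 to 9.34 in unstimulated cells, nearly all of it CD68. Its part in the results below was not tested.

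ISG15, the modifier itself, was detected in the interferon groups only. It measured 8.38, 12.0, 9.77 and 8.33 CPM in the 4 IFNα libraries and 1.26, 0, 0 and 1.12 CPM in the 4 IFNγ libraries. It was at 0 in all 36 libraries of the other 9 groups, for which 3 counts over a group allow a level of up to 0.454 to 0.640 CPM. In counts, these are 59.1 in the IFNα group as a whole and 3.24 in the IFNγ group, so ISG15 was the least counted member and its levels are coarse. ISG15 is commonly among the more abundant interferon-induced transcripts, but its mean with IFNα was 9.63 ± 1.73 CPM (SD, n = 4) where that of IFIT1 was 15514 CPM. Its rank per length and its ratios below share this low count. Its transcripts have a GC content of 63.4%, the highest of the 6. Symbols with 60% GC or more passed the count filter in 11.1% of cases, against 20.8% between 45% and 60% and 30.1% below 45%; whether this bears on the low ISG15 counts was not tested.

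USP18, the deconjugating protease, showed 3 separate levels. It stood at 247, 299, 220 and 207 CPM with IFNα and at 13.6, 9.14, 13.0 and 10.7 CPM with IFNγ. Unstimulated cells had 1.01 CPM in replicate 1 and 0 in the other 3, and the remaining 8 groups reached at most 9.07 CPM, in a TGF-β1 library. Every IFNα library lay above every IFNγ library, and every IFNγ library above all libraries of the other groups, the nearest being IFNγ replicate 2 at 9.14 CPM.

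UBA7, the E1 enzyme, was scarce throughout. It measured 9.92, 12.5, 13.5 and 5.60 CPM with IFNα, 6.03, 1.66, 1.73 and 6.41 CPM with IFNγ, and 0.979, 0, 0 and 2.05 CPM in unstimulated cells. The IFNα range lay clear of the unstimulated one but overlapped that of IFNγ, and the IFNγ range overlapped the unstimulated one. IL-17A came next by mean, at 2.63 ± 1.94 CPM (SD, n = 4), which is within the spread of IFNγ (3.96 ± 2.61 CPM).

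UBE2L6, the E2 enzyme, was the one member present in every library before any interferon was added. Unstimulated libraries had 34.8, 21.1, 14.1 and 13.0 CPM, IFNα libraries 573, 465, 418 and 336 CPM, and IFNγ libraries 331, 226, 441 and 402 CPM. The ranges of IFNα and IFNγ overlapped, and both lay far above all others. Group means of the other cytokines ran from 22.3 ± 7.19 CPM (TGF-β1, SD, n = 4) to 46.7 ± 19.1 CPM (OSM), with IL-22 at 40.2 ± 6.65, TNF at 36.2 ± 12.6, IL-13 at 35.1 ± 15.5, IL-1β at 30.0 ± 8.90, IL-17A at 26.8 ± 13.2 and IL-6 at 25.6 ± 14.0 CPM. Neighbours in that order differed by less than their SDs. The IL-22 libraries (34.9 to 49.7 CPM) lay just above the highest unstimulated library, as 2.20% of genes tested did with IL-22 by being higher without overlap.

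HERC5, the ligase, was close to all-or-none. It measured 189, 208, 205 and 237 CPM with IFNα, against 1.51, 0, 1.73 and 0 CPM with IFNγ and 0, 0.729, 0 and 1.37 CPM in unstimulated cells. The IFNγ and unstimulated ranges overlapped, and the highest value outside IFNα was 7.34 CPM in a TGF-β1 library.

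HERC6, its neighbour, followed HERC5 with IFNα, at 190, 192, 107 and 139 CPM. With IFNγ it was uneven, at 0, 17.2, 0.867 and 10.7 CPM, so that replicates 2 and 4 stood apart from replicates 1 and 3. Unstimulated cells had 1.47 CPM in replicate 1 and 0 in the rest. It was at 0 in all libraries with IL-13, IL-22 or TNF, and at 5.57, 0, 4.01 and 2.87 CPM with IL-17A.

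**Figure D2:**
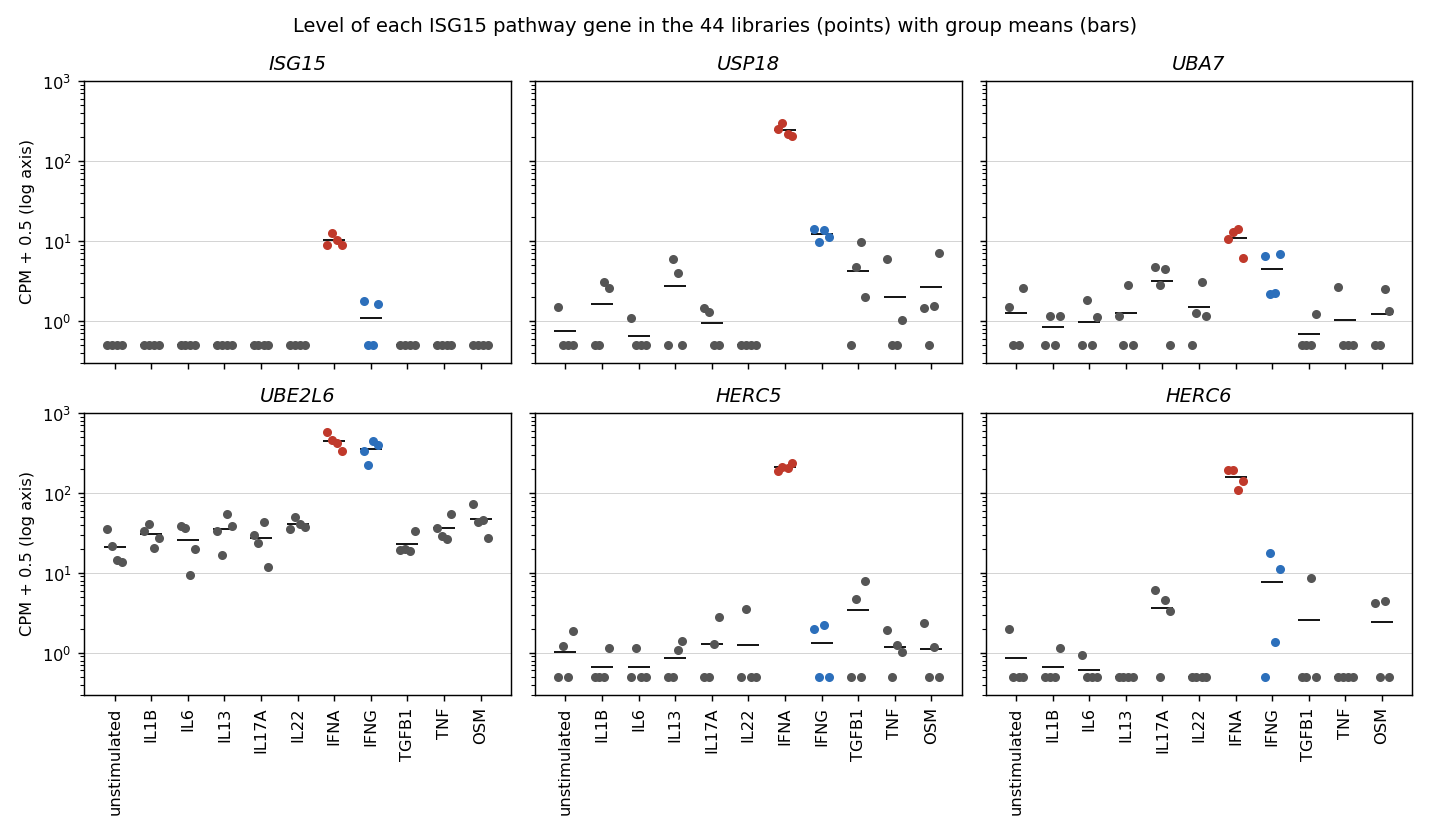
CPM + 0.5 (log axis) of each pathway gene in the 44 libraries by group; points are libraries, bars group means, with IFNα in red and IFNγ in blue, and points at the bottom are libraries at 0. For ISG15, USP18, HERC5 and HERC6 the IFNα libraries lie above all others, while for UBE2L6 the IFNα (336 to 573 CPM) and IFNγ (226 to 441 CPM) libraries overlap.

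The first comparison asked which pathway genes changed with each cytokine relative to unstimulated cells. A gene was called when its adjusted p (edgeR quasi-likelihood test, Benjamini-Hochberg over the 9513 genes) was under 0.05 and its absolute log2 fold change was above 1.5. With IFNα, 6 of 6 members were called higher, where 2.46% of all genes tested were called higher and 1.52% lower. The 4 IFNα libraries lay above all unstimulated libraries for the 6 members, as they did for 7.98% of genes tested. The median log2 fold change was 7.48 over the 6 members and -0.01 over all genes tested. ISG15, UBA7, HERC5 and HERC6 had enough counts to be tested only because of the IFNα libraries, so a difference was required for them to be tested. USP18 kept enough counts without the IFNα libraries, but not without those of both interferons. Only UBE2L6 was tested whatever the interferon libraries held. The count, the median and the adjusted p-values of the other members against unstimulated cells are therefore a description of their levels. In bulk RNA, more expressing cells and more RNA per cell cannot be told apart.

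USP18 had the largest fitted log2 fold change with IFNα, 9.26 (SE 0.90, adjusted p = 1.08e-10). In pooled counts it was 769 times the unstimulated level, with a 95% counting interval of 212 to 6354 because the unstimulated group held only 2 counts. HERC5 followed at 8.53 (SE 0.80, adjusted p = 2.03e-11), or 439 times (150 to 2133), and HERC6 at 8.17 (SE 1.06, adjusted p = 4.14e-07), or 337 times (115 to 1637). These sizes rest on 2 or 3 unstimulated counts, and moved to 11.46 for USP18 and 10.83 for HERC6 without unstimulated replicate 1, and to 9.47 for HERC5 without unstimulated replicate 4. Counting intervals cover counting error only.

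ISG15 rose with IFNα by a fitted log2 of 6.80 (SE 1.38, adjusted p = 0.00266). Since the unstimulated group was at 0, the measured change is a lower bound, at least 19.6-fold higher against 3 counts over the group. DESeq2's Wald test did not call ISG15 here (adjusted p = 0.157). UBE2L6, starting from a measurable level, rose by 4.40 (SE 0.38, adjusted p = 1.43e-12), 20.6 times in pooled counts (17.3 to 24.5). UBA7 rose by 3.59 (SE 1.04, adjusted p = 0.0166), 12.8 times (5.21 to 40.8), and this call was lost without unstimulated replicate 2 (3.25, adjusted p = 0.0659) or replicate 3 (3.26, adjusted p = 0.0592). Without unstimulated replicate 4 the UBA7 value was 4.46.

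With IFNγ, 3 of 6 members were called higher, UBE2L6, USP18 and HERC6, where 2.40% of genes tested were called higher and 1.14% lower. USP18 and HERC6 were tested only because of interferon libraries, so this count and their adjusted p-values are a description as well. UBE2L6 rose by 4.04 on the log2 scale (SE 0.38, adjusted p = 2.09e-11), 15.9 times (13.4 to 19.0). USP18 rose by 4.88 (SE 1.01, adjusted p = 0.000710), 36.5 times (9.67 to 309), and by 7.08 without unstimulated replicate 1. For these 2 genes, all IFNγ libraries lay above all unstimulated ones, as for 6.04% of genes tested.

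HERC6 passed with IFNγ at 3.75 (SE 1.16, adjusted p = 0.0297), 15.3 times (4.83 to 77.4), on 37 counts against 3. Its call depended on single libraries. It was lost without unstimulated replicate 2 (adjusted p = 0.0886), 3 (0.0714) or 4 (0.0838) and without IFNγ replicate 2 (2.94, adjusted p = 0.120) or 4 (0.0860), and the value was 6.41 without unstimulated replicate 1. DESeq2's Wald test did not call it (adjusted p = 0.215).

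The other members did not pass with IFNγ. UBA7 had a fitted log2 fold change of 2.24 (SE 1.06, adjusted p = 0.186), and 3.11 without unstimulated replicate 4. HERC5 had 0.62 (SE 1.26, adjusted p = 0.825) on 4 counts against 3. ISG15 had 4 rounded counts against 0, too few for a fold change (adjusted p = 0.202).

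**Figure D3:**
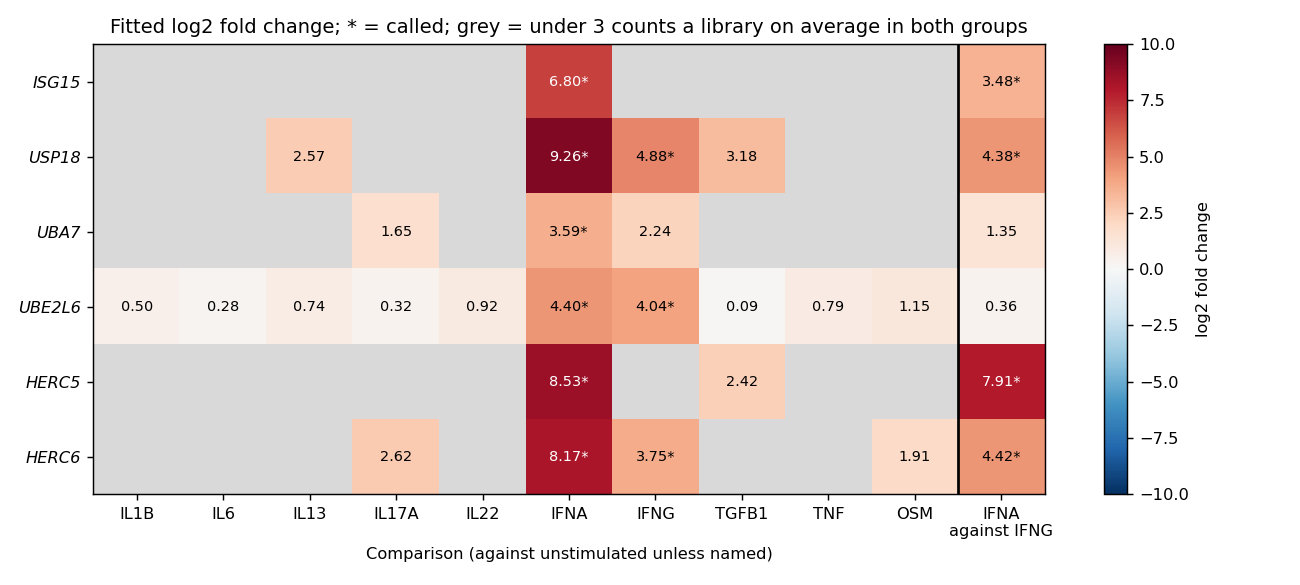
Fitted log2 fold change of each pathway gene (rows) in 10 comparisons with unstimulated cells and in IFNα against IFNγ (columns); asterisks mark calls, and grey marks pairs of groups with under 3 counts a library on average. Calls stand in the columns of IFNα (6), IFNγ (3) and IFNα against IFNγ (4), and in no other.

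The other 8 cytokines called 0 of the 6 members with edgeR, and DESeq2 also called 0. The shares of genes tested that were called higher were 1.47% with IL-1β, 0.0105% with IL-6, 0.273% with IL-13, 0.242% with IL-17A, 0% with IL-22, 0.641% with TGF-β1, 1.85% with TNF and 0.536% with OSM. Of the 48 tests, 7 had an unadjusted p under 0.05, where 14.5% of tests over all genes did so. ISG15 was at 0 on both sides of each of these comparisons, so its tests among the 48 could not pass. UBE2L6 with OSM came nearest to a call, at a log2 fold change of 1.15 (SE 0.37, adjusted p = 0.0672). It passed without unstimulated replicate 1, the highest of its group, at 1.55 (adjusted p = 0.0164). USP18 with TGF-β1 had 3.18 (SE 1.20, adjusted p = 0.115) on 16 counts against 2, and was called at 3.17 (adjusted p = 0.00822) when all genes with any count were tested. HERC5 with TGF-β1 had 2.42 (SE 1.03, adjusted p = 0.173) on 14 counts against 3. HERC6 with IL-17A had 2.62 (SE 1.24, adjusted p = 0.373) on 22 counts against 3. Both were among the 7 tests with an unadjusted p under 0.05. Otherwise, levels of ISG15, HERC5 and HERC6 in these groups were mostly too low for a fold change.

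The second comparison set IFNα directly against IFNγ in the same model. It asked which members differed between the 2 groups at the same dose by mass (10 ng/ml) and time (24 h). Whether the 2 interferons were equally active at that dose was not measured. Of the 6 members, 4 were called higher with IFNα, where 1.68% of genes tested were called higher and 1.06% lower. Since ISG15, HERC5 and HERC6 were tested only because of the IFNα libraries, this count and their adjusted p-values are again a description. HERC5 differed most, by 7.91 on the log2 scale (SE 0.78, adjusted p = 2.55e-10), 266 times in pooled counts (104 to 979). HERC6 differed by 4.42 (SE 0.80, adjusted p = 0.000209), 22.1 times (15.9 to 31.5), and by 5.24 without IFNγ replicate 2. USP18 differed by 4.38 (SE 0.62, adjusted p = 2.13e-06), 21.1 times (16.2 to 27.8). For HERC5, HERC6, USP18 and ISG15 the 4 libraries of each group did not overlap, as for 6.92% of genes tested in this direction. DESeq2's Wald test did not call HERC6 in this comparison (adjusted p = 0.160).

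ISG15 differed by 3.48 (SE 1.04, adjusted p = 0.0437), 11.9 times (4.41 to 45.2). This call lay at the threshold and was lost when any 1 of the 8 IFNα and IFNγ libraries was left out (adjusted p from 0.0618 to 0.114). UBE2L6 did not differ beyond its error, at 0.36 (SE 0.32, adjusted p = 0.588). UBA7 stood at 1.35 (SE 0.90, adjusted p = 0.432). Neither value shows that the interferons acted alike on these genes.

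Ratios between partners within a library were compared between IFNα and IFNγ as log2 ratios of CPM + 0.5. The ratio of USP18 to ISG15 was 4.59 ± 0.16 (SD, n = 4) with IFNα and 3.70 ± 0.96 with IFNγ (exact permutation test, two-sided, p = 0.171, 0.257 adjusted over 3 ratios). The ratio of HERC6 to HERC5 was -0.45 ± 0.46 with IFNα and 1.73 ± 3.61 with IFNγ (exact permutation p = 0.371, adjusted 0.371). The ratio of UBE2L6 to UBA7 was 5.41 ± 0.45 with IFNα and 6.47 ± 0.90 with IFNγ (exact permutation p = 0.114, adjusted 0.257). None of the 3 passed, but with 4 libraries a side a ratio that differed alone could not pass after adjustment over 3, however large the difference. ISG15 and HERC5 were at 2 counts or fewer in every IFNγ library, so ratios to them with IFNγ are set mainly by the added 0.5 CPM.

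The ratio of UBE2L6 to USP18, chosen after its values were seen, was 0.87 ± 0.26 with IFNα and 4.83 ± 0.32 with IFNγ. It is given as a description, with no test, and is not scaled for transcript length.

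Levels of different genes were compared per length, as CPM per kilobase of the longest transcript. With IFNα, the medians of 4 libraries were 281 for UBE2L6 (214 to 364), 79.1 for USP18 (70.2 to 101), 58.8 for HERC5 (53.8 to 67.4), 43.6 for HERC6 (28.4 to 50.7), 11.5 for ISG15 (10.6 to 15.3) and 3.39 for UBA7 (1.70 to 4.09). Ranges of neighbours in this order did not overlap. With IFNγ, UBE2L6 stood at 233 (144 to 281) and USP18 at 4.01 (3.09 to 4.59), with HERC6, UBA7, ISG15 and HERC5 at medians of 1.53, 1.17, 0.713 and 0.215 and overlapping ranges. In unstimulated cells only UBE2L6 was above 1, at 11.2 (8.25 to 22.1). Against the median transcript length the order with IFNα changed: HERC6 (mean 223) moved above USP18 (136) and HERC5 (93.5), and UBA7 (15.9) came to the level of ISG15 (14.7).

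**Figure D4:**
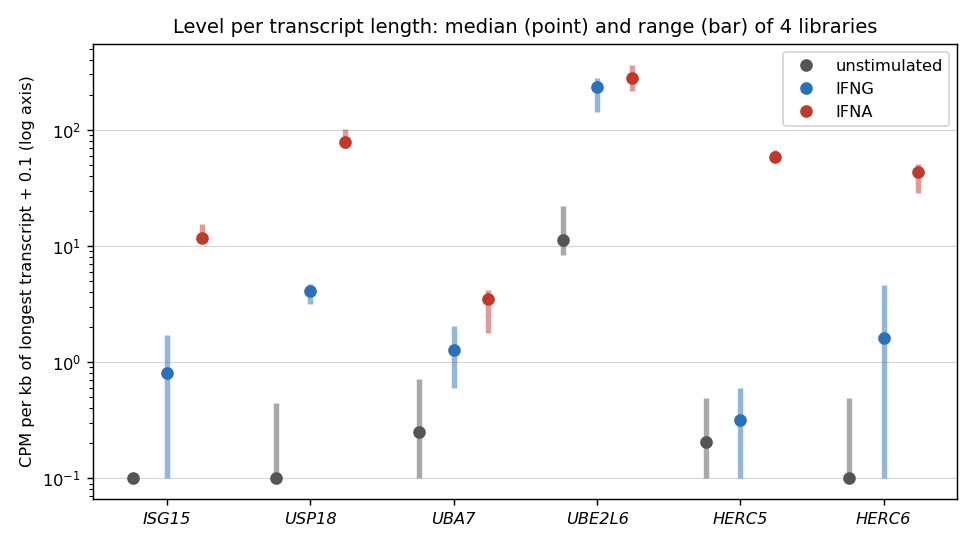
CPM per kilobase of the longest transcript + 0.1 (log axis) of the 6 genes in unstimulated, IFNγ and IFNα libraries; points are medians and bars the range of 4 libraries. UBE2L6 is the highest gene in each of the 3 groups, and HERC5 with IFNγ (median 0.215) stays beside its unstimulated level.

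Across the 11 group means of log2 CPM, the pattern of ISG15 was most like that of OASL (Pearson r = 0.993), CMPK2 (0.991), MX2 (0.981), IFIT1 (0.975), GMPR (0.975), RIGI (0.972), OAS2 (0.971), PNPT1 (0.970), RSAD2 (0.964) and SMARCA5 (0.963), among 9503 genes. OASL is itself a protein with ubiquitin-like domains. It had a mean of 117 CPM with IFNα, 1.78 with IFNγ and 0 in unstimulated cells, and RSAD2, the antiviral protein viperin, had 742, 1.40 and 0 CPM. SMARCA5, a chromatin remodeller, had 317, 196 and 168 CPM. Within the pathway, r with ISG15 was 0.978 for HERC5, 0.970 for HERC6, 0.959 for USP18, 0.888 for UBA7 and 0.801 for UBE2L6. Genes most like UBE2L6 were instead IFI30 (0.970), TMEM140 (0.970), HLA-E (0.969) and ADAR (0.968), a search added after its values were seen. These correlations describe 11 points, of which ISG15 is above 1 CPM in 1, and share the same libraries.

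Lists of related genes were followed in the same model. Exons of 10 of the 14 list genes called overlap those of another gene, so their counts may include reads of that gene. Of 10 other ISG15 enzymes and receptor genes, 6 were tested. TRIM25, a ligase that can itself carry ISG15 and conjugate it, rose with IFNα by 2.37 (SE 0.47, adjusted p = 0.000277), from 7.76 ± 3.54 to 41.4 ± 2.85 CPM (SD, n = 4), and with IFNγ by 1.60 (SE 0.48, adjusted p = 0.0211). The IFNγ libraries, at 4.15 to 44.1 CPM (24.0 ± 17.6), overlapped the unstimulated ones, and this call was lost without unstimulated replicate 2 or 4 or IFNγ replicate 3 or 4 (1.12 to 1.46). SKP2, part of a ubiquitin ligase, fell by 1.73 on the log2 scale with TGF-β1 (adjusted p = 0.000863), where 1.06% of genes tested were called lower. USP2, a protease reported to act on ISG15, fell by 2.12 with TNF (adjusted p = 0.0182), where 2.34% of genes were called lower. The USP2 call was lost without unstimulated replicate 2 (-1.66) or TNF replicate 2 (-1.74) or 4 (-1.80), and the value was -3.10 without TNF replicate 3. The list's median was -0.40 with IFNα, against -0.01 for all genes tested. The 2 subunits of the LFA-1 receptor for free ISG15, ITGAL and ITGB2, reached at most 1 count in any library.

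Of 11 interferon receptor and signalling genes, 9 were tested, and 3 rose with IFNα and 4 with IFNγ, with none falling. Over all genes tested, 2.46% were called higher with IFNα and 2.40% with IFNγ. The list medians were 0.87 and 0.89. STAT2 rose by 2.20 with IFNα (SE 0.30) and 1.93 with IFNγ (SE 0.30), and IRF9 by 2.41 and 2.18. Both IFNγ calls were lost when certain single libraries were left out. IRF9 ranged from 12.5 to 94.0 CPM with IFNγ (37.0 ± 38.2), and it was not called without IFNγ replicate 4, at 1.13 (adjusted p = 0.314). Leaving out unstimulated replicate 4 gave 1.97 for IRF9, which also missed the threshold (adjusted p = 0.0613). STAT2 ranged from 703 to 3282 CPM and was at 1.41, under the fold threshold, without IFNγ replicate 2. JAK2, a kinase of the IFNγ receptor, rose with IFNγ by 1.88 (SE 0.45) and had 1.27 with IFNα (adjusted p = 0.0678). IRF1, a transcription factor induced by interferon, rose by 1.53 with IFNα (adjusted p = 0.0458; lost without unstimulated replicate 2, 3 or 4 or IFNα replicate 2 or 4, at 1.06 to 1.67) and by 4.52 with IFNγ, and was lower with IFNα than with IFNγ by -2.99 (SE 0.47, adjusted p = 1.23e-05). IFNAR2, a chain of the receptor for IFNα, rose with TNF by 2.28 (SE 0.39, adjusted p = 3.44e-05), from 8.99 ± 2.41 to 43.9 ± 6.45 CPM. None of 9 interferon ligand genes had enough counts to be tested, and the most counts were 9 for IFNE and 3 for IFNA1, with IFNG and 5 others at 0 in all libraries.

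Of 12 genes whose proteins are known to be ISGylated, 11 were tested, and 5 rose with IFNα and 3 with IFNγ (list medians 0.61 and 0.30). Among all genes tested, 2.46% and 2.40% were called higher. The antiviral proteins MX1 and IFIT1 rose with IFNα by 8.85 (SE 0.52) and 7.77 (SE 0.55), and with IFNγ by 3.47 (SE 0.56) and 1.95 (SE 0.44). RIGI, the sensor of viral RNA, rose by 5.86 with IFNα and 2.22 with IFNγ. EIF2AK2, the kinase PKR, rose with IFNα by 2.37 (SE 0.24, adjusted p = 8.97e-11) and had -0.01 with IFNγ (SE 0.24, adjusted p = 0.987). CHMP5, of the ESCRT machinery, rose by 1.56 with IFNα (1.49 without IFNα replicate 4, under the threshold), and with IFNγ had 0.76, under the fold threshold. In the direct comparison, IFIT1, MX1, RIGI and EIF2AK2 were higher with IFNα by 5.81, 5.39, 3.64 and 2.38, where 1.68% of genes tested were called higher.

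Ubiquitin's own counterparts of the pathway were not called. Of 12 such genes 11 were tested, with 0 calls by edgeR in any of the 11 comparisons and fold changes between -1.21 and 0.97 on the log2 scale. Among all genes tested, the share called higher ran from 0% with IL-22 to 2.46% with IFNα. The share called lower ran from 0% with IL-6 and IL-22 to 2.34% with TNF. At such shares, 0 calls in 121 tests does not set this list apart. UBB, a gene for ubiquitin itself, had 0.64 with IFNα (adjusted p = 0.00938) and 0.97 with IFNγ (adjusted p = 6.13e-05), and UBA6, an E1 enzyme of ubiquitin, was the next most abundant. By edgeR, 28 of the 121 tests of this list had an unadjusted p under 0.05, and DESeq2 called 0. Of all 9513 genes tested, the number with such a p ran from 233 with IL-6 to 2236 with TNF. Over the 8 cytokines other than the interferons, the share for all genes was 14.5% of tests. UBE2L3, the closest relative of UBE2L6, had 0.49 (adjusted p = 0.0225) and 0.64 (adjusted p = 0.00210), all under the fold threshold. Of 24 genes of other ubiquitin-like systems, 1 was called, UBD, which encodes FAT10. It gave all 5 calls among the 264 tests of this list, so these calls describe UBD and not the list. The shares of all genes called higher were 2.40% with IFNγ, 1.85% with TNF, 2.46% with IFNα and 1.47% with IL-1β. With IFNα against IFNγ, 1.06% were called lower. UBD was at 0 in unstimulated cells and averaged 63.2 ± 30.2 CPM with IFNγ, 42.3 ± 7.98 with TNF, 5.27 ± 5.41 with IFNα and 4.57 ± 1.36 with IL-1β. It was called higher in these 4 groups, and lower with IFNα than with IFNγ by -3.62 (SE 0.82, adjusted p = 0.00321), or -4.52 without IFNα replicate 3. The UBD call with IFNα was lost without IFNα replicate 3 (adjusted p = 0.0583) and that with IL-1β without unstimulated replicate 1 (adjusted p = 0.0542). UBD overlaps GABBR1 on its own strand and OR2I1P on the opposite strand, so its counts are uncertain.

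**Figure D5:**
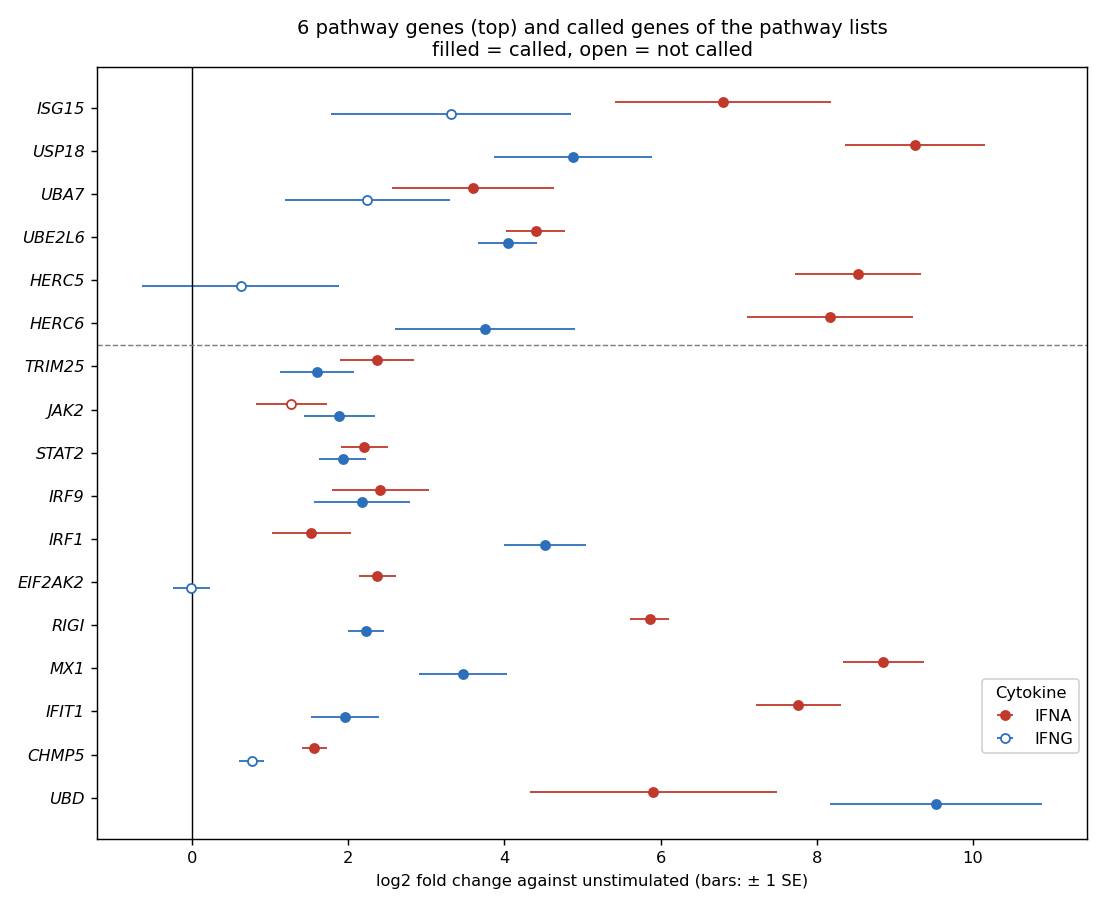
Log2 fold change against unstimulated cells (± 1 SE) of the 6 pathway genes (above the dashed line) and of list genes called with IFNα (red) or IFNγ (blue); filled points are calls, and the ISG15 value with IFNγ rests on 4 counts against 0. HERC5 and EIF2AK2 lie near 0 with IFNγ (0.62 and -0.01), while UBE2L6 has 4.40 with IFNα and 4.04 with IFNγ. The IRF9 and STAT2 calls with IFNγ were lost when single libraries were left out.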

How the data were processed

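RNA of Ccd18-Co cells was sequenced in bulk in 44 libraries, grouped by the cytokine in the sample labels. The authors checked reads with FastQC (0.11.9) and MultiQC (1.14) and quantified them with kallisto (0.48.0), and deposited estimated counts per gene symbol, not scaled for depth. The submitters' notes name hg38. kallisto ran at its defaults, which ignore strand. Which transcriptome release was used and how transcripts were joined into symbols are not given in the sources used here. Fractions were rounded to whole counts, which matters for genes of few counts such as ISG15.

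Genes were kept by edgeR's filterByExpr over the 11 groups (9513 of 40663), which removes most genes below about 10 counts. Libraries were scaled with TMM factors, and 1 quasi-likelihood model (edgeR 4.0.16 in R 4.3.3) of all 44 libraries gave each contrast. The SE of a log2 fold change is its size divided by the square root of F. Pooled ratios carry exact 95% binomial intervals. A group at 0 was set to 3 counts over the group. Ratios were tested by exact permutation over the 8 libraries (SciPy 1.17.1). Likeness is Pearson's r over 11 group means of log2 CPM (prior count 2), for genes with a mean log2 CPM of at least 1. Per-length levels used transcripts of GENCODE 44, to which 99.23% of symbols matched. The code was tested on simulated data. Of 66 pairs of replicates, 0 were identical, and the closest pair differed by 3.26 times what sampling noise gives (chi-square per degree of freedom).

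The genes named are the 6 members in each group, every gene of the lists that was called in a comparison (for a list with no call, the 2 of highest mean CPM) and the 10 genes most like ISG15. Items of the lists that are not reported here were left out of their counts. The members and lists were chosen with earlier results of these data known. Genes named outside this rule (ITGAL, ITGB2, UBE2L3, marker genes and those most like UBE2L6) were chosen after their values were seen. Alternatives were DESeq2's size factors, DESeq2's Wald test (1.42.0), all genes with any count, a stricter filter (10 counts in 4 libraries), a fit of the 8 compared libraries alone, a block for the replicate number, a fold limit of 1 on the log2 scale or none, each replicate left out, an added 2 CPM in ratios, correlation over 44 libraries and the median transcript length. Leaving out each library for the list genes was added after the data were seen.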

Additional observations from a re-analysis of the deposited data

Results flagged for a closer look

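Within groups of 4, a value was singled out when its gap to the next took up more of the group's range than Dixon's 95% limit. Of 32 groups of a member with more than 3 counts in some library, 5 had such a value. A rate of 1 in 20 would give 1.6, but where every other library is at 0 a value is singled out whatever its size. This was so for HERC5 and HERC6 below, so 5 against 1.6 does not measure an excess. USP18 stood at 5.50 CPM in TNF replicate 1, against 0 to 0.536 in the others. It stood at 6.60 CPM in OSM replicate 4, against 0 to 1.04. UBE2L6 stood at 33.0 CPM in TGF-β1 replicate 4, against 18.1 to 19.1. HERC5 stood at 3.02 CPM in IL-22 replicate 2 and HERC6 at 8.17 CPM in TGF-β1 replicate 3, each against 0 in the other replicates. Apart from UBE2L6, these values are 4 to 9 counts in 1 library. None lies in an interferon group, and none belongs to a comparison in which a member was called.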

How the results depend on the processing

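Of 13 member calls in the interferon comparisons, 8 held under every alternative run, and the calls lost are those of ISG15 (both IFNα comparisons), UBA7 with IFNα and HERC6 with IFNγ and between the interferons. The count with IFNα was 6 and became 5 with DESeq2's Wald test, the stricter count filter (UBA7 not tested) or only the 8 libraries compared. The count with IFNγ was 3 and became 2 with DESeq2 or only the 8 libraries. Between the interferons it was 4 and became 2 with DESeq2, and 3 with all genes. Leaving out 1 replicate gave 5 to 6, 2 to 3 and 3 calls. It gave 0 to 1 with OSM, and testing all genes gave 1 with TGF-β1. UBE2L6 with TGF-β1 (0.09) changed sign with a replicate left out, -0.15 to 0.49 on the log2 scale, far from any call. With 2 CPM added, the USP18 to ISG15 ratio differed by 1.98 (exact permutation p = 0.0286). This p is not adjusted over the ratios and is the smallest that these libraries can give. The added UBE2L6 to USP18 difference was -4.08 to -3.85 without 1 replicate. Against the median transcript length, levels with IFNα were 14.7 for ISG15, 136 for USP18, 15.9 for UBA7, 670 for UBE2L6, 93.5 for HERC5 and 223 for HERC6. Over 44 libraries, 7 of the 10 genes most like ISG15 remained.

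Replicate numbers gave little sign of pairing: deviations of same-numbered libraries correlated at 0.02 on average, with 20 of 220 pairs above 0.1. Those of other-numbered libraries correlated at -0.01, with 40 of 660 pairs above 0.1, so same-numbered libraries were slightly more alike. With the replicate number as a block, ISG15 lost its call between the interferons (3.56, adjusted p = 0.0755), leaving 3, and no other member call changed. Of 30 calls of list genes, 22 held with each library left out. Except where said, the cause was not tested. ISG15 and UBA7 had few or no counts, as did HERC5 and HERC6 outside IFNα and USP18 outside both interferons. This limits their results, and whether depth was the reason was not tested.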
